A study of Rattus norvegicus with 16 samples.

Results

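The cytosolic ribosomal protein genes were taken as all array probes, controls left out, whose gene name in the scanner files is Rpl or Rps followed by a number, with an optional a or l and further digits after it, or is Rpsa or one of the acidic stalk genes Rplp0, Rplp1 and Rplp2. The rule found 156 of 30367 probes, which carry 85 of the 26214 names on the array. Of these, 155 probes and 84 genes passed the scanner's flag for a signal well above background on 4 or more of 16 arrays and were tested, 53 for the large and 31 for the small ribosomal subunit. The testis-type gene Rpl39l did not reach that minimum. The rule itself uses names and no measured value.

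The cells came from cultures of olfactory mucosa of male Fischer rats and were separated by flow cytometry into fractions of 93 to 97% purity, per the labels, with 4 biological replicates each. CD90 cells were sorted on the product of Thy1, p75 cells on the low-affinity neurotrophin receptor (Ngfr) and TRKA cells on the marker of that name, all from the same culture protocol. The fraction called TRKA-TGF was sorted on TRKA after its culture had been conditioned with TGF-alpha. The mRNA was amplified as cDNA by a global PCR before Cy3 labelling, so all values describe amplified material. Nothing in the labels says that the replicates came from separate animals, so p-values measure the spread between these samples.

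Cytosolic ribosomes translate nearly all messenger RNA of a cell. The large subunit joins amino acids and the small subunit reads the message, and each protein is usually present once per ribosome. Many ribosomal protein messages begin with a run of pyrimidines at the cap, the TOP element, through which their translation follows growth signals by way of mTORC1, while transcription of the genes is raised by Myc. Many processed copies of these genes lie scattered in rodent genomes, and a probe may bind RNA from a copy that shares its sequence.

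Levels are log2 signals with the upper quartile (75th percentile) of each array set to 0, and a difference is the first fraction minus the second. The TRKA arrays had fewer detected spots than the others. There, 51.4 to 57.5% of spots were well above background, against 66.4 to 72.4% on the other 12 arrays. Their upper quartile lay between 758 and 1104 units of processed signal, against 1328 to 1519 on the p75 arrays, and it overlapped that of the CD90 arrays (1073 to 1198) and the TRKA-TGF arrays (997 to 1237). All p75 and TRKA arrays shared slide 1 and all CD90 and TRKA-TGF arrays slide 2, so 2 of the 6 comparisons lie within a slide. For the 4 that cross slides, the slide's share cannot be told apart from the group's. Within a slide each group had a row of its own, and row and group cannot be told apart. Thy1 and Ngfr were highest in the fractions sorted on them, at 3.34 ± 0.29 in CD90 and 3.03 ± 0.24 in p75 (mean ± SD, n = 4). The 13 macrophage markers were all higher in TRKA than in p75 (largest adjusted p = 0.000809), and Ptprc, the leukocyte antigen CD45, was undetected in p75. All 11 glial markers were lower in TRKA than in p75, and 5 of 13 fibroblast markers were.

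Ribosomal protein genes were among the brightest features of every array. Their median level was 4.32 ± 0.12 in p75, 4.01 ± 0.04 in CD90, 5.29 ± 0.10 in TRKA and 4.33 ± 0.02 in TRKA-TGF (mean ± SD over 4 arrays). The 4 TRKA arrays lay at 5.15, 5.35, 5.38 and 5.29, above every other array, and the p75 and TRKA-TGF arrays overlapped. Without scaling, the median log2 signal of the members was 14.95 to 15.26 on TRKA arrays and 14.68 to 14.90 on p75 arrays. It was 14.12 to 14.25 on CD90 arrays and 14.29 to 14.60 on TRKA-TGF arrays. TRKA was also the top fraction by share of signal, which is itself a scaling, to the summed signal of the array. The member probes held 6.32 to 6.81% of the array signal on TRKA arrays, 4.99 to 5.15% on p75 arrays, 4.65 to 4.91% on TRKA-TGF arrays and 4.36 to 4.60% on CD90 arrays. No fraction overlapped another. By rank the fractions were closer. The median member sat at the 97.3 to 97.7 percentile of tested genes in p75 and at 97.6 to 97.8 in TRKA, and these arrays overlapped.

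**Figure D1:**
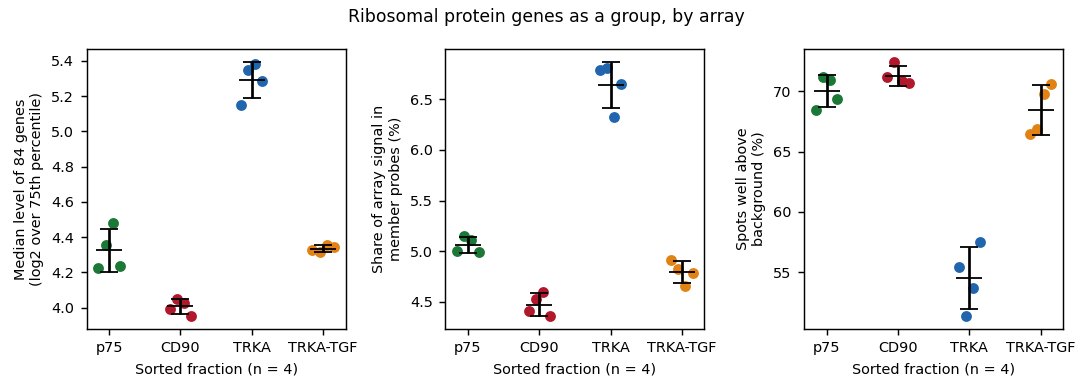
Median level of the 84 ribosomal protein genes (log2 over the upper quartile of the array), share of array signal in their 156 probes (percent), and percent of spots well above background. Points are arrays, 4 per sorted fraction, with the mean and SD in black. The TRKA arrays are highest in the first and second plots, at 5.15 to 5.38 and 6.32 to 6.81%, and lowest in the third.

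TRKA and p75 cells, sorted from the same kind of culture, shared a slide. Of the 84 genes, 67 rose in TRKA (adjusted p under 0.05, limma) and 1, Rpl7l1, fell, with a median difference of 1.04 on the log2 scale (2.06-fold), against −0.12 over all 20579 genes. The large subunit had 41 of 53 genes higher, with a median of 1.02, and the small subunit 26 of 31, with a median of 1.06. Over all genes, 16.9% were called higher and 17.9% lower. Many bright genes were higher in TRKA on this scale. The cut used here and below is the mean level over all 16 arrays, TRKA included, so high TRKA values help a gene pass. The part of this in the shares was not tested. Among the 2338 genes with a mean level over 2, 55.4% were called higher and 6.84% lower, and the median difference was 0.75, whereas 63 of the 73 members in that range were called higher with a median of 1.05. Arrays of the fractions did not overlap for 71 members in the higher direction, against 17% of all genes, and for none in the lower direction, against 13.7%. In such bulk RNA, fewer cells of a type and less RNA per cell cannot be told apart.

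The size of this shift depended on how the arrays were scaled. After quantile normalization 30 members were called higher and 7 lower with a median of 0.31, against 0.28 over all genes. The authors' deposited log2 table gave the same counts of 30 and 7, and unscaled signals gave 30 and 3. Of the 30 genes called higher after quantile normalization, 27 were also called on the upper quartile scale, and 26% of all genes were called higher and 16.5% lower. The lower spot detection and signal of the TRKA arrays moved with the result, as did the macrophage markers, whose summed level was 558 to 682 times the upper quartile on TRKA arrays, against 7.68 to 14.8 on p75 arrays, and it reached 299 to 321 with TGF-alpha and 28.6 to 45.6 among the CD90 arrays. In TRKA-TGF, where 12 of these 13 markers were also higher than in p75, the median ribosomal protein difference from p75 was 0.06. The part of these in the result was not tested.

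**Figure D2:**
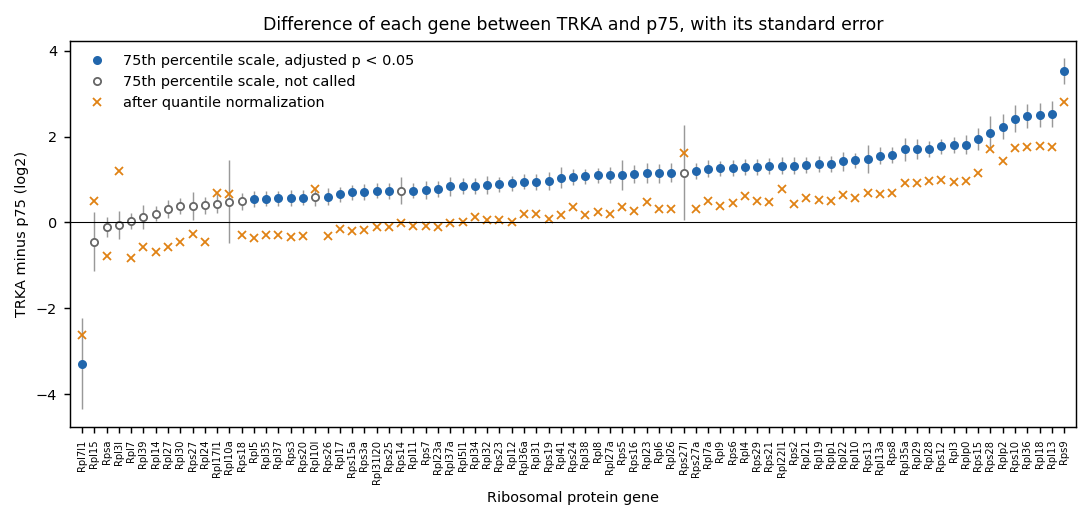
TRKA minus p75 difference (log2) of 81 of the 84 genes, ordered by size. Circles are values on the upper quartile scale with their standard errors, filled in blue where the adjusted p was under 0.05, and orange crosses are values after quantile normalization. Over all 84 genes the first scale has a median of 1.04 and the second one of 0.31, and Rps9 has the largest circle value at 3.52.

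The genes differed in size of change, each read at its brightest kept probe. Rps9, a protein of the small subunit near the entry of the messenger RNA channel, had the largest difference. Its levels were 0.63, 1.47, 0.97 and 1.40 in p75, 1.04, 1.98, 1.67 and 1.00 in CD90, 4.67, 4.92, 4.80 and 4.16 in TRKA, and 2.22, 2.58, 1.86 and 2.27 in TRKA-TGF. All TRKA arrays lay above every other array, and the difference from p75 was 3.52 (SE 0.30, adjusted p = 1.04e-06), or 11.5-fold. Rps10, which lies on the head of the small subunit, stood at 0.77, 1.55, 1.16 and 0.78 in p75 and at 3.23, 3.75, 3.67 and 3.28 in TRKA. The TRKA arrays again lay clear of the others, with a difference of 2.42 (SE 0.31, adjusted p = 3.63e-05). Rps15, a neighbour of the decoding site, differed by 1.94 (SE 0.25), and Rps28 by 2.09 (SE 0.39), with 1 TRKA array at 2.54 and the other TRKA arrays between 1.66 and 1.71.

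On the large subunit, Rpl13 had levels of 2.10, 1.76, 1.58 and 2.58 in p75, 1.24, 2.18, 1.60 and 0.87 in CD90, 4.23, 4.80, 4.55 and 4.51 in TRKA, and 1.63, 1.61, 1.66 and 1.88 in TRKA-TGF. Rpl18 stood at 1.31, 1.57, 1.41 and 1.80 in p75 and at 3.81, 4.45, 4.31 and 3.50 in TRKA. Rpl36 stood at 2.04, 1.88, 2.23 and 1.41 in p75 and at 4.18, 4.82, 4.55 and 3.94 in TRKA. In these 3 genes no TRKA array overlapped another fraction, and the differences from p75 were 2.52, 2.49 and 2.48 (SE 0.30, 0.28 and 0.28). The P stalk, which recruits elongation factors to the ribosome, rose as a whole. Rplp2 differed by 2.23 (SE 0.28), Rplp0, the base of the stalk, by 1.81 (SE 0.22) and Rplp1 by 1.36. Rpl3, which reaches toward the peptidyl transferase centre, stood at 4.43 to 4.47 in p75 and at 6.06, 6.38, 6.37 and 6.24 in TRKA, a difference of 1.81 (SE 0.18). The smallest called rises, from 0.55 to 0.60, were those of Rpl5, which with Rpl11 and 5S RNA binds Mdm2, and of Rpl35, Rpl37, Rps3, Rps20 and Rps26.

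The brightest members were not those with the largest rise. Of the 5 brightest members, Rps24, Rpl34 and Rpl17 differed by 1.06, 0.85 and 0.65. Rps24 had levels of 5.91, 6.09, 6.04 and 5.93 in p75 and 6.84, 7.18, 7.19 and 7.01 in TRKA, without overlap. Taken by their level in CD90, which does not enter this comparison, the 22 genes over 5 had a median difference of 0.93 the 10 genes between 0 and 2 a median of 1.87, and the 6 genes below 0 a median of 0.54. Over the 84 genes the difference correlated with the level in CD90 at r = 0.09 and with the GC content of the probe at r = −0.20. Over all genes these correlations were −0.05 and 0.06. They are descriptions across genes that share arrays.

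Another 16 of the 84 members were not called in either direction. They were Rpl7, Rpl10a, Rpl10l, Rpl14, Rpl15, Rpl17l1, Rpl24, Rpl27, Rpl30, Rpl39, Rpl3l, Rps14, Rps18, Rps27, Rps27l and Rpsa. Rpl7, an rRNA-binding protein of the large subunit, stood at 6.28, 6.04, 6.16 and 6.31 in p75 and at 6.10, 6.26, 6.39 and 6.17 in TRKA, and these arrays overlapped. Rpl14 stood at 5.13, 5.19, 5.29 and 5.12 in p75 and at 5.44, 5.27, 5.52 and 5.32 in TRKA, again with overlap. Rpsa, a small subunit protein also known as a laminin receptor precursor, stood at 2.89, 2.92, 3.00 and 2.34 in p75 and at 2.97, 2.78, 2.63 and 2.32 in TRKA, also with overlap. After quantile normalization Rpl7, Rpl14, Rpl24, Rpl27, Rpl30, Rpsa and Rpl7l1 were the 7 genes called lower.

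Spread within the family was tested by centring each array on the median of its own members, an alternative chosen after seeing the data. In TRKA versus p75, 17 genes then lay above the other members and 9 below them. Rps9 stood 2.55 above the member median, Rpl13 1.55, Rpl18 1.53, Rpl36 1.51 and Rps10 1.45 above it. On the lower side, Rpl7 stood at −0.94, Rpl14 at −0.77, Rpl39 at −0.84 and Rpsa at −1.08. Each gene was read through 1 probe. Rps9, Rpl13 and Rpl18 had only 1 kept probe, starting at bases 659, 646 and 561. The probes used for Rpl7, Rpl14 and Rpsa start at bases 394, 178 and 36, and probes nearer their 3′ ends, given below, differed by more. Gene and probe position cannot be told apart in this ranking. In CD90 versus p75 only 3 genes, Rplp0, Rps2 and Rpl17l1, departed from the member median, and in TRKA-TGF versus CD90 only Rpl17l1.

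**Figure D3:**
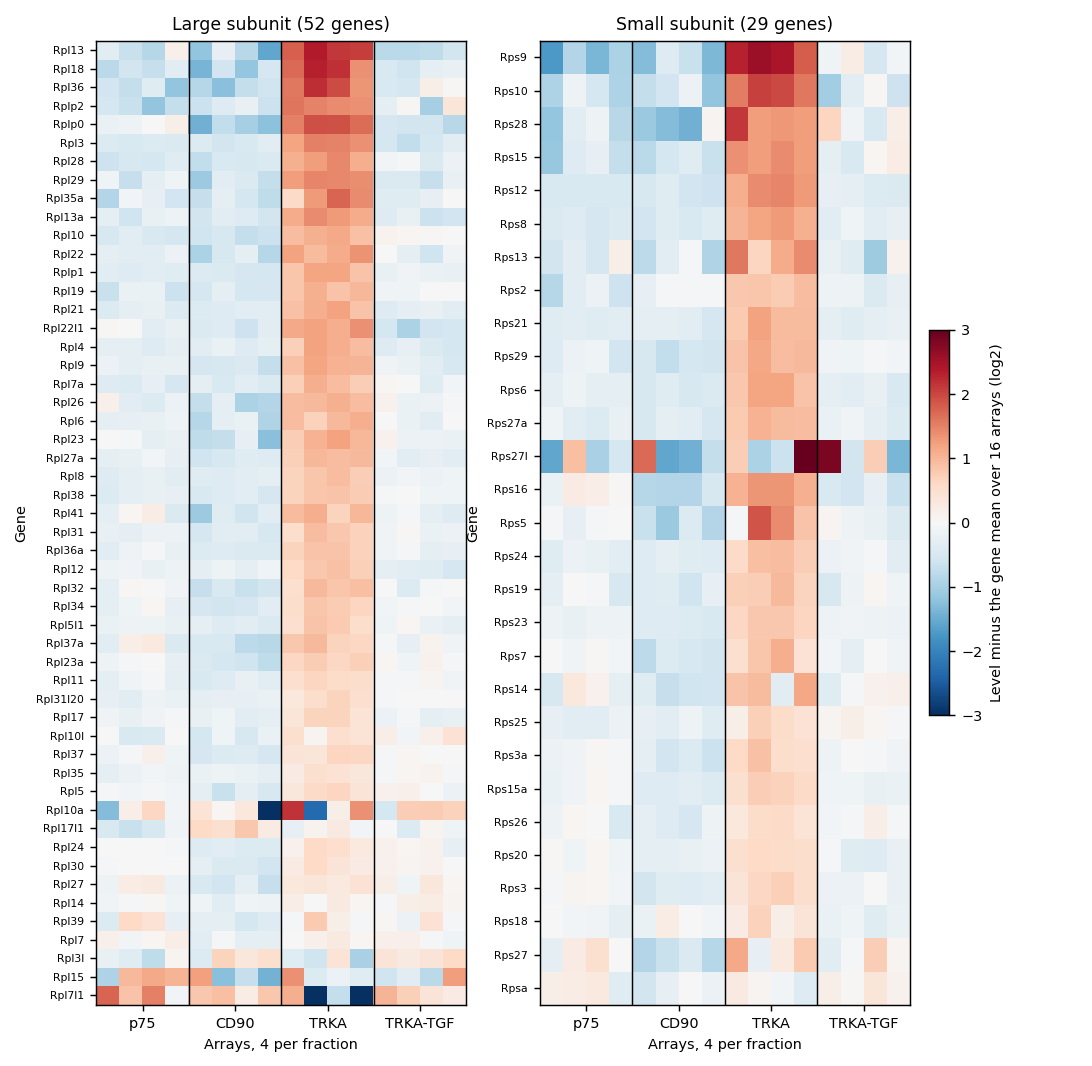
Level of 81 of the 84 genes minus each gene's mean over the 16 arrays (log2, colours end at −3 and 3), with genes of each subunit ordered by their TRKA minus p75 difference and arrays in columns, 4 per fraction. The TRKA columns are red for most genes, and genes near the bottom such as Rpl7, Rpl14 and Rpsa show little difference.

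Probes of the same transcript gave different sizes of change. For 38 members, the array held at least 2 probes of the same RefSeq transcript that were well above background on all 16 arrays and started at least 60 bases apart. The probe nearer the 3′ end had the larger TRKA minus p75 difference in 34 of the 38 transcripts. The median difference was 0.87 at the 5′ probe and 1.36 at the 3′ probe. Other genes showed the same direction. Over all 536 such transcripts the 3′ probe had the larger difference in 380, with medians of 0.12 and 0.74. In CD90 versus p75 the 3′ probe was the larger in 17 of the same 38, and in TRKA-TGF versus CD90 also in 17.

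Probes of 2 genes, chosen after their values were seen, are printed because each pair reads 1 transcript at separate places and gave unlike sizes of difference. Here 5′ and 3′ name the order within the printed pair. Positions are on rn4, as the array files give them, and each sequence is a whole 60-base probe in lower case.
Rps2 5′ probe: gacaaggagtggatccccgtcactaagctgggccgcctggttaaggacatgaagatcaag
Rps2 3′ probe: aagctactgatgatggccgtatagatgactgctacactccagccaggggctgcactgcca
Rpl28 5′ probe: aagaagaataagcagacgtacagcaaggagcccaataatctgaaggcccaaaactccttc
Rpl28 3′ probe: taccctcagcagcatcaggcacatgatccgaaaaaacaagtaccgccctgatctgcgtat

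The Rps2 probes start at bases 182 and 647 of the transcript and lie at chr10:13975666-13975804 and chr10:13976628-13976688 on the plus strand. Rps2 helps form the entry of the messenger RNA channel. The 5′ probe stood at 1.98, 2.50, 2.35 and 1.74 in p75 and at 2.12, 2.80, 1.22 and 2.21 in TRKA, with overlap and a difference of −0.06 (SE 0.33, adjusted p = 0.913). The 3′ probe stood at 4.04, 4.56, 4.73 and 4.28 in p75 and at 5.71, 5.72, 5.65 and 5.83 in TRKA, without overlap and with a difference of 1.32 (SE 0.21). Probes further 3′, at bases 866 and 868, differed by 1.73 and 1.88. The Rpl28 probes start at bases 72 and 281 and lie at chr1:67770629-67770770 and chr1:67770003-67770062 on the minus strand. Their differences were 0.86 (SE 0.19) and 1.71 (SE 0.20), both past the threshold, while a probe at base 958 gave 0.57 with an SE of 1.60. A genomic span longer than 60 bases means that the probe bridges a gap in the transcript's alignment.

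**Figure D4:**
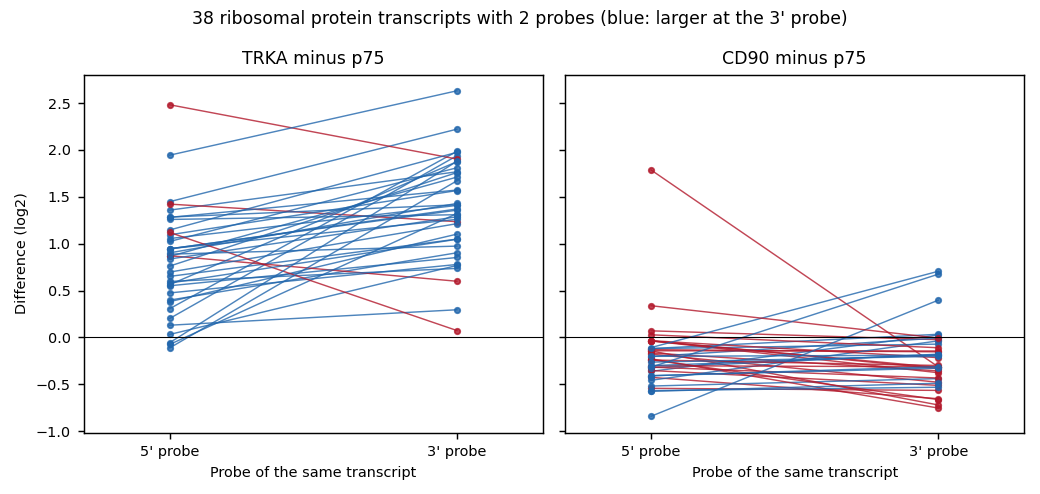
Difference (log2) at the 5′ and the 3′ probe of 38 ribosomal protein transcripts, each joined by a line, for TRKA minus p75 and CD90 minus p75. Blue lines rise toward the 3′ probe, 34 of 38 in the first panel and 17 of 38 in the second.

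The 3′ probe was also the dimmer of the pair in 30 of the 38 transcripts, and it had the larger difference in 26 of these 30 and in all 8 transcripts where it was the brighter. Several genes without a called difference at their brightest probe were called at the 3′ probe. Rpl14 differed by 0.20 at base 178 and by 1.94 at base 638, Rpl7 by 0.03 at base 394 and by 0.77 at base 788, and Rpsa by −0.11 at base 36 and by 1.67 at base 957. With the kept probe of the largest start position for every gene, chosen after seeing the data, 69 members were called higher and 1 lower, with a median of 1.22. No gene had probes called in opposite directions in TRKA versus p75. Of the 51 genes with several kept probes, all probes were called higher in 31, some in 15 and none in 5. Counted by probe, 122 of the 155 kept member probes were called higher and 1 lower, against 16.3% and 18.8% of all 23696 kept probes. For the largest start position no share of all genes is given. Probes of 7 genes lie on more than 1 chromosome, and RNA from gene copies cannot be told apart there. The Rpl5 and Rpl5l1 probes lie beside each other at chr14:2401385-2401444 and chr14:2401281-2401340 on the same strand. These names may therefore count 1 locus as separate members.

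TGF-alpha conditioned TRKA cells were compared with unconditioned ones. Of the 84 genes, 64 fell and 0 rose by limma, with a median of −0.94, against 0.35 over all genes, of which 10.9% were called lower and 15% higher. At an unadjusted p under 0.05, 69 members differed in either direction, a count given without its share of all genes. Quantile normalization left 27 lower, all 27 among the 64, and 3 higher, and 28 were lower and 3 higher in the authors' deposited log2 table. After quantile normalization 19% of all genes were lower and 12.8% higher. Among genes with a mean level over 2, 44.2% fell and 5.82% rose, and 60 and 0 of the 73 members in that range did. Arrays did not overlap for 68 members in the lower direction and 0 in the higher, against 12.5% and 13.1% of all genes. The largest falls were in Rpl13 (−2.83, SE 0.30), Rps9 (−2.41, SE 0.30), Rplp0 (−2.36, SE 0.22), Rpl18 (−2.30, SE 0.28) and Rps10 (−2.28, SE 0.31). Rpl29 and Rpl13a, the latter known for silencing inflammatory messages when released from the ribosome, differed by −1.84 and −1.69. This comparison shares the TRKA arrays with TRKA versus p75, crosses the slides, and had the more negative difference at the 3′ probe in all but 2 of 38 transcripts. Rpl37a had probes called in opposite directions. Those at bases 34 and 300 of its transcript gave −0.85 and −1.41, and a probe at base 644 of another accession, on another chromosome, gave 3.32. That last probe was dim, at −6.51, −7.16, −6.23 and −6.49 in TRKA and at −3.39, −0.42, −4.11 and −5.20 in TRKA-TGF. The size of its difference is therefore uncertain.

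TRKA versus CD90 crosses the slides too and gave the highest count. There, 73 genes rose and 1, Rpl7l1, fell, with a median of 1.24 against −0.23 over all genes, of which 16% were called higher and 17.8% lower. Among genes with a mean level over 2, 55.5% rose and 5.65% fell, against 68 and 0 of 73 members. Arrays did not overlap for 76 members in the higher direction and 0 in the lower, against 15.8% and 13.4% of all genes. Quantile normalization gave 33 higher and 4 lower, against 25.6% and 16.8% of all genes. The Rpl7l1 call was lost without any single CD90 array (adjusted p = 0.0659 to 0.0863), without TRKA replicate 2 or 4 (adjusted p = 0.117 and 0.118), with no filter, and with only the 2 groups in the fit. Rps9 differed by 3.22 (SE 0.30), Rpl13 by 3.05 (SE 0.30), Rplp0 by 2.85 (SE 0.22), Rpl18 by 2.81 (SE 0.28), Rpl36 by 2.63 (SE 0.28), Rps10 by 2.45 (SE 0.31) and Rps28 by 2.42 (SE 0.39).

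Few members were called among the fractions other than TRKA. In TRKA-TGF versus CD90, on the same slide, 2 rose and 0 fell by limma, against 7.87% and 7.03% of all genes, and 20 members passed an unadjusted p under 0.05. The median was 0.31, against 0.17 over all genes, and 75 of the 84 genes were higher in TRKA-TGF. Rpl10, a late assembly protein needed for subunit joining, stood at 4.85, 4.97, 4.74 and 4.80 in CD90 and at 5.57, 5.51, 5.49 and 5.46 in TRKA-TGF. These arrays did not overlap, and the difference was 0.67 (SE 0.18, adjusted p = 0.0189). Rpl23a, which sits at the exit of the nascent chain, stood at 4.15, 4.06, 3.98 and 3.83 against 4.63, 4.44, 4.71 and 4.52 (difference 0.57, adjusted p = 0.0497). Neither call was made after quantile normalization. Leaving out CD90 replicate 3 ended the Rpl10 call (adjusted p = 0.0545), as did leaving out TRKA-TGF replicate 1, and the Rpl23a call was lost without any single array of either fraction. Among genes with a mean level over 2, 13.9% rose and 4.88% fell. Arrays did not overlap for 40 members in the higher direction and 2 in the lower, against 17% and 11.9% of all genes. A fit with an intensity trend called 34 members higher. For that fit and for the unadjusted p no share of all genes is given, so those member counts have no background beside them.

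In CD90 versus p75, 1 member rose and 2 fell, against 3.74% and 3.46% of all genes, and the median was −0.21 against 0.07. Rplp0 stood at 3.64, 3.68, 3.81 and 4.00 in p75 and at 2.40, 3.11, 2.85 and 2.61 in CD90, without overlap (difference −1.04, SE 0.22, adjusted p = 0.00815). Rps16 stood at 3.82, 4.28, 4.22 and 4.05 in p75 and at 3.18, 3.15, 3.14 and 3.54 in CD90, also without overlap (difference −0.84, SE 0.21, adjusted p = 0.0227). The other Rps16 probe, at base 746, gave 0.40, which was not called. Rpl17l1, listed as a relative of Rpl17, was the 1 higher gene at 0.96 (adjusted p = 0.018). Rps16 was no longer called without p75 replicate 2 or 3 or CD90 replicate 1, 2 or 3, nor Rpl17l1 without p75 replicate 2 or CD90 replicate 1 or 3. Among genes with a mean level over 2, 2.91% rose and 4.7% fell. Arrays did not overlap for 1 member in the higher direction and 28 in the lower, against 10.1% and 8.85% of all genes. With an intensity trend 20 members fell, and on unscaled signals 16, settings for which no share of all genes is given. In TRKA-TGF versus p75, Rps9 alone was called, 1.11 higher (adjusted p = 0.0226), against 8.44% of all genes called higher and 6.91% lower, and the median was 0.06. That call was lost without p75 replicate 1 or 3 or TRKA-TGF replicate 2 or 4. Among genes with a mean level over 2, 11.5% rose and 5.73% fell. Arrays did not overlap for 14 members in the higher direction and 4 in the lower, against 18% and 11.4%.

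Paralogs here are genes related to a core protein, and some of them can replace it in certain tissues. Of 7 paralogs tested, 3 rose in TRKA versus p75 and 1 fell, against 16.9% and 17.9% of all genes. Their median was 1.09. Rpl22l1, the paralog of Rpl22, stood at 1.10, 1.09, 0.74 and 0.85 in p75, 0.62, 0.69, 0.45 and 0.76 in CD90, 2.20, 2.28, 2.16 and 2.43 in TRKA, and 0.54, 0.12, 0.49 and 0.54 in TRKA-TGF. TRKA lay above all other arrays, by 1.32 over p75 (SE 0.20, adjusted p = 0.000151), while Rpl22 itself differed by 1.42. The Rpl22l1 probe at base 51, however, was lower in TRKA than in CD90 by −1.86 (adjusted p = 0.00582), where the probe at base 452 was higher by 1.64. Rpl7l1 stood at 1.78, 0.87, 1.54 and −0.06 in p75 and at 1.11, −3.97, −0.68 and −5.50 in TRKA. The TRKA arrays spread over several log2 units and 1 of them overlapped p75, and the difference was −3.29 (SE 1.07, adjusted p = 0.0278). It was no longer called without p75 replicate 1, 2 or 3 or TRKA replicate 2 or 4, or with only the 2 groups in the fit.

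Muscle-type Rpl3l passed the background flag on 3 arrays each of CD90 and TRKA-TGF and on 0 of p75 and TRKA. Rps27l, a paralog of Rps27, and Rpl15, seen here through a single probe at base 1863 of its transcript, were detected on 5 arrays each, at mean levels between −7.63 and −6.33. Rpl10l was detected on all arrays and stood at −0.72 ± 0.26 in p75 and −0.12 ± 0.20 in TRKA, a difference that was not called (0.59, adjusted p = 0.0526).

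A list of 6 ribosomal protein genes on the array has names outside the pattern. It shares Rps4y2 and Rpl36al with the paralogs, so these were already counted above. In TRKA versus p75, 4 of the 6 rose, 1 fell and 1 was not called, against 16.9% of all genes higher and 17.9% lower. Their median was 1.19. Fau, which encodes a fusion of a ubiquitin-like protein with Rps30, stood at 1.79, 2.00, 1.72 and 0.41 in p75 and at 3.26, 4.27, 3.78 and 4.00 in TRKA, without overlap (difference 2.35, SE 0.37). Rpl36al rose by 2.44 and Rps4y2 by 1.09. Rps4x fell, with 4.64, 4.75, 4.81 and 4.63 in p75 against 3.65, 4.25, 3.94 and 3.74 in TRKA and 5.01, 4.94, 4.96 and 4.94 in TRKA-TGF. Its TRKA arrays lay below every array of the other fractions, and the difference from p75 was −0.82 (SE 0.19, adjusted p = 0.00453). Gnb2l1, the scaffold Rack1 on the head of the small subunit, differed by −0.31 (adjusted p = 0.287).

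**Figure D5:**
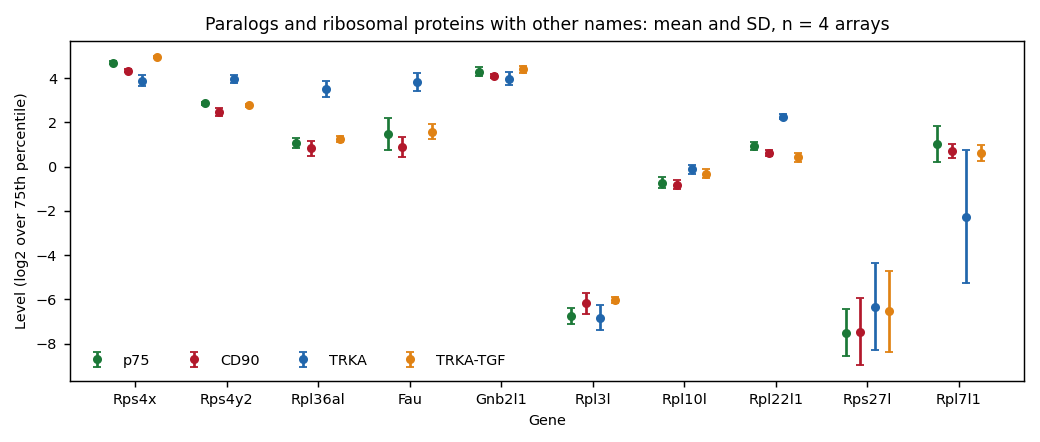
Mean level (log2 over the upper quartile) with SD over 4 arrays per fraction for ribosomal proteins named outside the pattern and for paralogs. TRKA is highest for, among others, Rps4y2, Rpl36al, Fau and Rpl22l1, and lowest for, among others, Rps4x and Rpl7l1.

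Other genes of translation were counted the same way, against 16.9% of all genes higher and 17.9% lower. In TRKA versus p75, 5 of 13 elongation factors and other TOP transcripts rose and 1 fell, with a median of 0.66. Eef1d, an exchange factor for eEF1A, rose by 1.65 (SE 0.20), Pabpc1, the poly(A)-binding protein, by 1.24, Tpt1 by 1.15 and Eef1g by 1.10. Eef1a1, which delivers aminoacyl-tRNA, differed by 0.27 (adjusted p = 0.246), and Btf3 fell by 1.46 on the log2 scale. Of 24 initiation factors 9 rose and 3 fell, with Eif5 at 2.10, Eif4b at 1.99, the cap-binding Eif4e at −3.12 and Eif3e at −2.99. Eif4e stood at 2.54, 2.44, 1.34 and 2.66 in p75 and at −4.19, −0.02, 2.12 and −1.41 in TRKA. Its highest TRKA array overlapped p75. Of 69 mitochondrial ribosomal proteins, 13 rose and 7 fell, with a median of 0.26.

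The ribosome assembly list had 5 of 26 genes higher and 4 lower, again near the 16.9% and 17.9% of all genes. Among them were Fbl, the rRNA methyltransferase fibrillarin, 2.54 higher (SE 0.26) and Sbds, needed for release of Eif6, called lower (adjusted p = 0.000889). Sbds was well above background on only 2 of the 4 TRKA arrays, so its difference has no exact size. Of 16 genes of mTORC1 and Myc control, 3 rose and 1 fell, against the same 16.9% and 17.9%. Myc, the transcription factor, stood at 1.46, 0.55, 1.34 and 1.31 in p75, 1.68, 1.72, 2.02 and 2.02 in CD90, 3.65, 3.79, 3.31 and 3.85 in TRKA, and 1.32, 1.09, 1.15 and 0.48 in TRKA-TGF. TRKA lay above all other arrays (difference from p75 2.48, SE 0.27, adjusted p = 8.47e-06). Tsc2, of the same list, stood at −2.72, −2.25, 0.60 and −1.91 in p75 and at 2.46, 2.10, 2.50 and 2.09 in TRKA, without overlap. Mtor was the gene called lower (adjusted p = 0.0174), but it was well above background on only 2 of the 4 TRKA arrays, so its difference has no exact size. Its levels were 0.48, −0.41, −0.43 and 0.75 in p75 and −1.85, −7.78, −7.56 and −0.30 in TRKA, and the highest TRKA array overlapped p75. In TRKA-TGF versus TRKA, Myc fell (−2.64, adjusted p = 1.18e-05), and 6 of 13 elongation and TOP genes, 8 of 24 initiation factors and 4 of 26 assembly genes fell, while 1, 2 and 4 rose, against 10.9% of all genes lower and 15% higher.

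Transcription start windows are shown because the TOP element is the sequence feature this family is known for. A RefSeq promoter row of the GRCr8 assembly was matched for 65 of the 84 genes. The motif searched was a C within 2 bases of the annotated start followed by at least 4 pyrimidines, on the transcribed-sense strand only. It was found in 34 of the 65 (52.3%), against 8.57% of all 33469 promoters. The windows below hold 30 bases around the start for the 5 largest and the 5 smallest TRKA minus p75 differences among matched genes with a mean level over 2, with the pyrimidine run in capitals where the motif was found.
Rps9: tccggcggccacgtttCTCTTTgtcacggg
Rpl13: ctttgcggtgcccgatCCTTTCCgctcggc
Rpl18: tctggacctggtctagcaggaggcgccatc
Rpl36: ctgtccggccgccatcggaaagctgcaggt
Rplp2: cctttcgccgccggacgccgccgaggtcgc
Rpsa: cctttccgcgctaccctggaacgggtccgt
Rpl39: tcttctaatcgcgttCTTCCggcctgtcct
Rpl14: gggcgggccctctccCTTCTCgctgagcgc
Rps27: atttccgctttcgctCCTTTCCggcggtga
Rpl24: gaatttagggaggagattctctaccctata

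The first 5 windows lie at chr1:74430423-74430452, chr19:68062499-68062528, chr1:105325255-105325284, chr9:1533765-1533794 and chr1:205975906-205975935, with Rps9 on the minus strand and the others on the plus strand. The last 5 lie at chr8:128728864-128728893 and, for Rpl39, chrX:121195882-121195911, then chr8:129163605-129163634, chr2:177964592-177964621 and chr11:58128391-58128420, with Rpsa and Rpl14 on the plus strand. The motif was present in both sets. The 34 genes with it had a median TRKA minus p75 difference of 1.08 and the 31 without it 1.16, and 28 and 26 of them were called higher. A missing run says only that these letters are not at the annotated start, which for some genes may lie some bases from the start used in the cell.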

How the data were processed

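Single-colour Agilent arrays of 16 samples were analysed. Intensity values are processed signals in the deposited scanner files, background-subtracted by Feature Extraction, version 10.7.3.1 per the file headers and 10.5 per the submitters' processing notes. A log2 table deposited by the authors, with no stated scale or centring, served as an alternative. Each array's 75th percentile, taken over its spots other than controls, was subtracted from the log2 processed signals. Spots marked as outliers were left out, spots of a probe averaged, and probes kept when flagged well above background on 4 or more arrays. A gene was represented by its brightest kept probe. limma 3.58.1 (R 4.3.3) was fitted with 1 mean per group over all 16 arrays, with Benjamini-Hochberg adjustment over 20579 genes and calls at an adjusted p under 0.05. SE values come from that fit, whose code was tested on simulated data.

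Alternatives were quantile normalization, normexp background correction (offset 50), the deposited table, another centring, other filters, the mean of probes, fits of only 2 groups, an intensity trend, a replicate block and leaving out each array. A further 3 were chosen after seeing the data: no scaling, the probe with the largest start position, and centring on the members. Named genes are, in each comparison, among up to 10 called members with the largest and up to 10 with the smallest difference. The 5 brightest and 5 dimmest members, paralogs, ribosomal proteins named otherwise, genes with probes called in opposite directions, and up to 4 called genes of each other translation list were also named. Other named genes were chosen after their values were seen. The members and gene lists were chosen with earlier results of these data known. By RefSeq accession, 75 names matched the GRCr8 gene table and 6 more by symbol, 3 were unmatched, and Rpl37 is listed as Rpl37l1. Some members and markers are counted but not reported here by name. Arrays carry no counts, so their number limits the precision.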

Additional observations from a re-analysis of the deposited data

Results flagged for a closer look

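Among 108 sets of 4 arrays checked (the named genes in each fraction, the median member level and the share of signal), 7 held an array far from the other 3, and chance alone gives about 1 in 20. Near background, Rpl15 had its lowest p75 array at −8.03 (the next at −6.13) and its highest TRKA array at −5.73 (the next at −7.27). Rps28 had 1 TRKA array at 2.54 with the next at 1.71, and Rps16 1 CD90 array at 3.54 with the next at 3.18. Rpl7l1 had 1 CD90 array at 0.26 below the next at 0.83. In TRKA-TGF, single arrays lay low for Rpl22l1 (0.12, next 0.49) and Rplp0 (3.01, next 3.28).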

How the results depend on the processing

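Counts are given as members higher/lower; on the upper quartile scale they were 67/1 for TRKA versus p75, 73/1 for TRKA versus CD90, 0/64 for TRKA-TGF versus TRKA, 2/0 for TRKA-TGF versus CD90, 1/2 for CD90 versus p75 and 1/0 for TRKA-TGF versus p75. In that order, quantile normalization gave 30/7, 33/4, 3/27, 0/1, 1/2 and 1/2. The authors' deposited log2 table gave 30/7, 34/4, 3/28, 0/1, 1/2 and 1/3. Centring on the median of probes detected on all arrays gave 44/1, 59/3, 2/58, 0/1, 1/2 and 0/3. Unscaled signals, added after seeing the data, gave 30/3, 61/3, 2/51, 1/0, 0/16 and 0/4. Centring on the members, also added, gave 17/9, 12/16, 14/12, 0/1, 2/1 and 1/0. Normexp gave 70/1, 73/2, 0/66, 5/1, 1/2 and 2/3, and the intensity trend 72/1, 75/1, 0/70, 34/0, 0/20 and 9/3. The probe with the largest start position, added too, gave 69/1, 69/2, 1/66, 4/1, 1/2 and 1/1, and there Rps16 reversed, to 0.40 in CD90 versus p75 and −0.32 in TRKA versus CD90. The mean of probes gave 66/1, 69/1, 0/62, 2/0, 1/1 and 1/1, no filter 68/1, 73/0, 0/64, 2/0, 1/2 and 1/0, and detection on 12 or more arrays 69/1, 73/1, 0/65, 4/0, 1/2 and 2/0. Fits of only 2 groups gave 51/0, 62/0, 0/48, 1/0, 1/2 and 1/0. Shares of all genes are not given for settings other than the upper quartile scale and quantile normalization. The cause of these moves was not tested.

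Deviations of same-numbered arrays correlated between −0.03 and 0.04, and those of arrays with other numbers between −0.04 and 0.03. Such values cannot tell whether equal numbers mark the same animals or cultures, and the labels do not say. The replicate block gave 65/1, 73/1, 1/61, 1/0, 1/2 and 1/0. Leaving out single arrays gave, for higher and for lower, 62 to 67 and 0 to 1 in TRKA versus p75, 72 to 73 and 0 to 2 in TRKA versus CD90, 0 to 2 and 59 to 64 in TRKA-TGF versus TRKA, 0 to 2 and 0 to 0 in TRKA-TGF versus CD90, 0 to 1 and 1 to 2 in CD90 versus p75, and 0 to 1 and 0 to 0 in TRKA-TGF versus p75. The all-gene median of TRKA versus p75 was −0.12, 0.28 after quantile normalization and −0.76 unscaled. Rpl15, Rpl3l and Rps27l lay near background, which limits what can be read from them.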
